A study of Mus musculus with 6 samples.

Results

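The miRNAs described here are 6 mature miRNAs from 4 hairpins that are known from leukocytes: mmu-miR-142a-5p and mmu-miR-142a-3p, mmu-miR-223-5p and mmu-miR-223-3p, mmu-miR-150-5p, and mmu-miR-342-3p (written below without the species prefix). They were chosen by name from the 1900 mature miRNA names in the deposited tables. Names matched for 4 of them. The tables list the other 2 under the older name miR-142, and these were matched by their precursor. All 6 passed the filter on low counts. The tables give small RNA reads of renal cortex from 6 C57BL/6 mice. All were kept for 8 weeks on a diet labelled HF/HC/HS/BA, which is used to induce steatohepatitis. This diet was rich in fat and cholesterol and contained bile salt, and the HS of its label is not spelled out here. In 3 mice the diet was given alone, and in 3 mice it contained tofogliflozin, an inhibitor of the renal glucose transporter SGLT2. No mice on a normal diet were analysed here, so each comparison is between 2 groups that share the diet, and the sources used here do not state the age or sex of the mice. The series' title names renal inflammation, and the question here was whether myeloid and lymphoid miRNAs differed with the drug and whether they moved together from mouse to mouse.

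A miRNA acts through its seed, bases 2 to 8, which pairs with target mRNAs and so marks them for repression. miR-142 is made in nearly all blood-forming lineages and is scarce outside them, which makes it a general leukocyte marker. miR-223 is most abundant in neutrophils and monocytes and restrains granulocyte production and activation. miR-150 is high in mature B, T and NK lymphocytes and represses the transcription factor Myb. miR-342, carried by the gene Evl, is found in lymphocytes and also in macrophages and dendritic cells, so it is a less strict lymphoid marker. In a kidney, such miRNAs come from resident and infiltrating leukocytes and from blood left in the vessels.

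The mature sequences are shown because the members have to be told apart by them. RefSeq (build GRCm38.p6) gave 5 of the 6, printed here from 5′ to 3′ with the seed in capitals. miR-150-5p is named only.
miR-142a-5p: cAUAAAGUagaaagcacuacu
miR-142a-3p: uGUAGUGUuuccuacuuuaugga
miR-223-5p: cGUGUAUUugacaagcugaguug
miR-223-3p: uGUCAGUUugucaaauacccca
miR-342-3p: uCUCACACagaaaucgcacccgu
The 5 seeds are all different, and no other mature miRNA among the 1679 in the RefSeq table had any of them. No member had more than 1 row in the tables, so none of their counts was merged from several precursors.

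The hairpins are shown because both of their arms were counted and are compared below. Capitals mark the 5p arm and then the 3p arm.
Mir142: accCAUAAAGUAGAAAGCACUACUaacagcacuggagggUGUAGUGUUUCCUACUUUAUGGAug
Mir223: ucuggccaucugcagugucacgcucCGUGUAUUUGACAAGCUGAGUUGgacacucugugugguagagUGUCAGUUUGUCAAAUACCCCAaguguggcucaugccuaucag
Mir342: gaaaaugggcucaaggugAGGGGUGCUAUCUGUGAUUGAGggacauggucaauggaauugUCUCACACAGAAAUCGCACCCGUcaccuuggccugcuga
Mir142 lies at chr11:87756864-87756927 on the plus strand, in an intron of the long noncoding RNA gene Mir142hg. Mir223 lies at chrX:96242817-96242926 on the plus strand, within an exon of the noncoding transcript F630028O10Rik. Mir342 lies at chr12:108658620-108658718 on the plus strand, in an intron of the protein-coding gene Evl. Mir150 lies at chr7:45121757-45121821 on the plus strand, outside any other annotated gene. Host genes are those of GENCODE M21 on the same build.

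Total counts over all rows ranged from 8598518, in tofogliflozin replicate 2, to 29766679. With the largest row of each repeated name, from which the values below were scaled, they ranged from 6643638, in the same library, to 22886200. That shallowest library also stood apart on the first principal component of all tested miRNAs, which held 52.0% of the variance, at a score of 13.8 against -6.17 to 0.14 in the other 5. The lowest score was that of tofogliflozin replicate 3. The tubule miRNA miR-192-5p, a marker of the labelled tissue, was at 44707 to 54106 CPM (counts per 1000000 counts of the library, after TMM scaling). The 6 leukocyte miRNAs together summed to 129, 185 and 121 CPM in diet-only replicates 1 to 3 and to 112, 150 and 115 CPM in tofogliflozin replicates 1 to 3, so they made up a small part of each library. Nothing in the labels ties libraries to batches, and mice of the same group are taken as separate animals per the series' design text.

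The most abundant member was miR-150-5p, at 54.2 ± 6.87 CPM over all mice (SD, n = 6), which ranked 158 among the 460 tested miRNAs. miR-223-5p (28.0 ± 10.8 CPM) and miR-342-3p (25.4 ± 11.1 CPM) followed and did not differ beyond their spread, with miR-223-5p the higher of both in 4 of 6 libraries. miR-142a-5p stood at 14.3 ± 5.83 CPM and was below miR-342-3p in all 6 libraries, though their ranges overlapped. miR-142a-3p was at 9.75 ± 2.18 CPM, below miR-142a-5p in 5 of 6 libraries. Last was miR-223-3p at 3.78 ± 0.771 CPM, lower than every other member in each library. Ligation of adapters favours some small RNAs over others, so this order compares reads and not molecules.

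None of the 6 members passed the test between the groups, and the value of each lay below 0. In edgeR's quasi-likelihood test 0 of 6 members had an adjusted p under 0.05, against 0% of all 460 tested miRNAs. At an unadjusted p under 0.05 there were 0 members against 5% of all tested, and 23 miRNAs in all. DESeq2 called 2 miRNAs and limma-voom 0, no member among them. Log2 fold changes (tofogliflozin minus diet only) were below 0 for 6 of 6 members and for 50.9% of all tested miRNAs, with a median of -0.20 against -0.01. Since 2 hairpins give 2 members each, the 6 values are not independent. When diet-only replicate 2 or tofogliflozin replicate 3 was left out, 4 of 6 were below 0, and without tofogliflozin replicate 1, 5 of 6. Groups did not overlap for 0 of 6 members, against 12% of all tested. In bulk tissue, fewer leukocytes and less of a miRNA per leukocyte cannot be told apart.

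**Figure D1:**
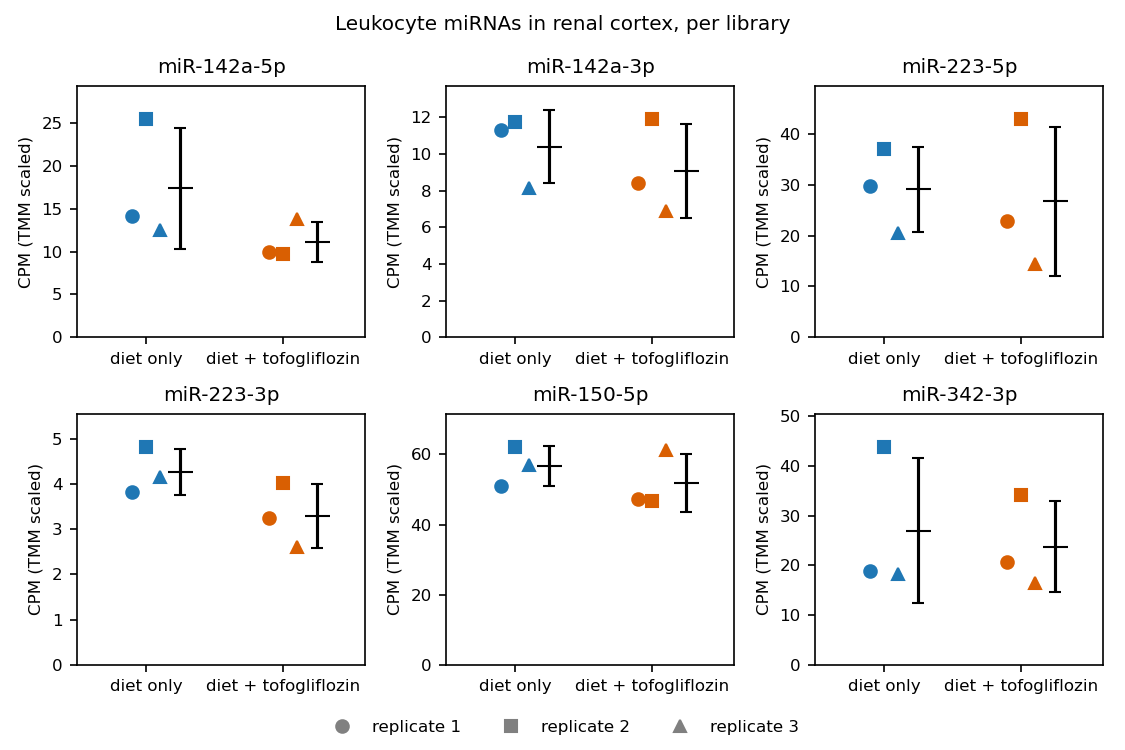
CPM of each member (vertical axis, TMM scaled) in the 3 diet-only and the 3 tofogliflozin libraries; the symbol gives the replicate and the bars the mean ± SD. The groups overlap in every panel, and diet-only replicate 2 is the highest diet-only library in each.

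Of the pan-leukocyte pair, miR-142a-5p had the lowest log2 fold change of the 6. It stood at 14.2, 25.5 and 12.5 CPM in diet-only replicates 1 to 3, and at 9.91, 9.69 and 13.8 CPM in tofogliflozin replicates 1 to 3. Diet-only replicate 2 was far above the other libraries, and tofogliflozin replicate 3 lay above diet-only replicate 3, so the groups overlapped. The log2 fold change of -0.63 ± 0.31 (SE) had a 95% interval from -1.35 to 0.08 (adjusted p = 0.854 by edgeR; exact permutation p = 0.2). It was -0.23 without diet-only replicate 2. A fold from 0.393 to 1.06 was not excluded.

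The opposite arm showed less of a difference. miR-142a-3p was at 11.3, 11.8 and 8.12 CPM on the diet alone and at 8.43, 11.9 and 6.91 CPM with tofogliflozin. The highest and the lowest library both belonged to the tofogliflozin group. Its log2 fold change, -0.21 ± 0.27 (SE), had an interval from -0.83 to 0.41 (adjusted p = 0.877 by edgeR; exact permutation p = 0.7). miR-142b, which is annotated on the opposite strand of the same locus, was at 0 counts in all 6 libraries, which allows up to 0.131 to 0.452 CPM, taking 3 counts as the limit.

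For the myeloid miR-223, neither arm passed the test. miR-223-5p was at 29.8, 37.1 and 20.5 CPM in diet-only replicates 1 to 3, and at 22.8, 43.1 and 14.4 CPM in tofogliflozin replicates 1 to 3. Within the tofogliflozin group alone it spanned the whole range of the study, from the lowest to the highest library. The difference on the log2 scale was -0.14 ± 0.40 (SE; interval -1.06 to 0.79; adjusted p = 0.969 by edgeR; exact permutation p = 0.8). The value turned above 0 without diet-only replicate 2 (0.12), tofogliflozin replicate 1 (0.03) or tofogliflozin replicate 3 (0.20), and was -0.65 without tofogliflozin replicate 2.

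miR-223-3p was at 3.83, 4.83 and 4.16 CPM on the diet alone and at 3.25, 4.03 and 2.60 CPM with tofogliflozin. Tofogliflozin replicate 2 lay above diet-only replicate 1, and the other 2 tofogliflozin libraries lay below all diet-only libraries. The log2 fold change of -0.40 ± 0.27 (SE) had an interval from -1.02 to 0.23 (adjusted p = 0.859 by edgeR; exact permutation p = 0.2). These values rest on 27 to 87 reads per library. For the 27 reads of tofogliflozin replicate 2 the exact 95% binomial interval is 2.65 to 5.86 CPM, which holds the value of every other library but tofogliflozin replicate 3. Such intervals cover counting error only, because the reads carry no molecular identifiers.

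The lymphocyte miRNA miR-150-5p varied least from mouse to mouse, with 1.33 times between the highest and the lowest library. It stood at 50.8, 62.2 and 57.0 CPM in diet-only replicates 1 to 3, and at 47.3, 46.8 and 61.3 CPM in tofogliflozin replicates 1 to 3. Tofogliflozin replicates 1 and 2 were the lowest libraries, while replicate 3 was second only to diet-only replicate 2. A log2 fold change of -0.13 ± 0.18 (SE) was fitted, its interval from -0.54 to 0.28 (adjusted p = 0.893 by edgeR; exact permutation p = 0.3). A fold from 0.689 to 1.21 was thus not excluded, the narrowest range of the members. The other arm, miR-150-3p, had 9 to 40 reads per library and a log2 fold change of -0.28 ± 0.41 (SE).

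miR-342-3p was at 18.8, 43.9 and 18.3 CPM in diet-only replicates 1 to 3, and at 20.7, 34.1 and 16.5 CPM in tofogliflozin replicates 1 to 3. Replicate 2 of either group stood well above the other 4 libraries, which lay close together. The groups differed by a log2 fold change of -0.19 ± 0.41 (SE), interval -1.14 to 0.76 (adjusted p = 0.969 by edgeR; exact permutation p = 0.7). It turned above 0 without diet-only replicate 2 (0.39) or tofogliflozin replicate 3 (0.05), and was -0.53 without tofogliflozin replicate 2. Its other arm, miR-342-5p, was at 17.2, 25.1 and 12.7 CPM on the diet alone and at 15.5, 24.2 and 11.4 CPM with tofogliflozin. Both arms were thus highest in replicate 2 of each group, and the log2 fold change of miR-342-5p was -0.12 ± 0.34 (SE).

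**Figure D2:**
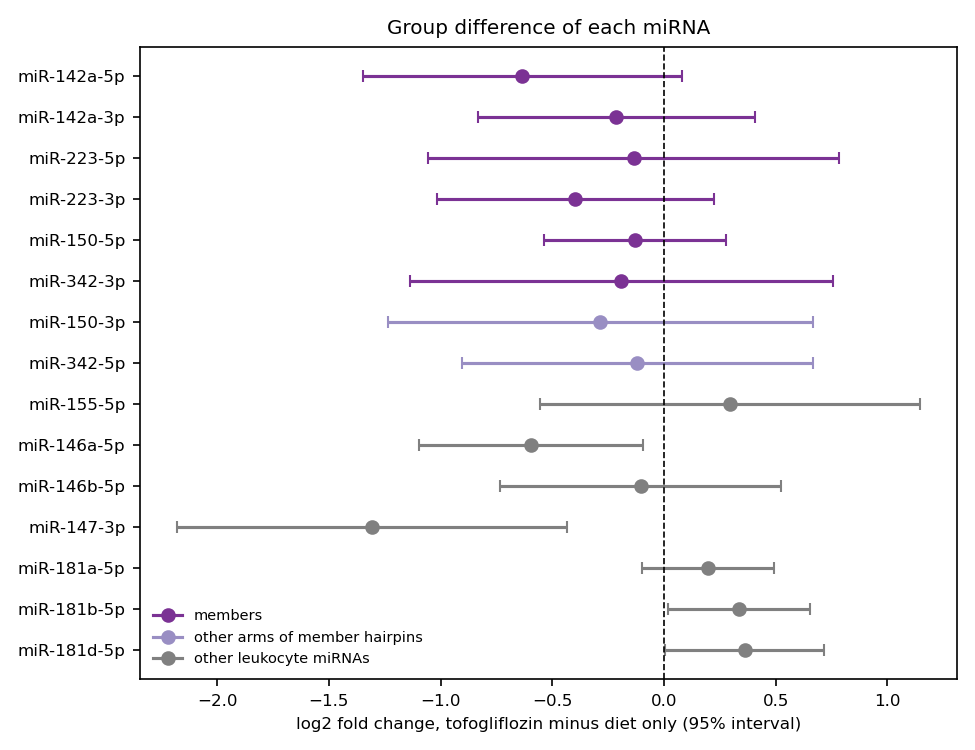
Log2 fold change of each miRNA, tofogliflozin minus diet only (horizontal axis), with its 95% interval from edgeR. The intervals of all 6 members include 0, and those of miR-146a-5p, miR-147-3p, miR-181b-5p and miR-181d-5p do not, although none of these passed after adjustment.

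Whether myeloid and lymphoid members moved together was first read from the order of the libraries. miR-223-5p and miR-142a-3p ranked the 6 libraries in the same order, from tofogliflozin replicate 2 at the top over diet-only replicates 2 and 1, tofogliflozin replicate 1 and diet-only replicate 3 down to tofogliflozin replicate 3. The arms of miR-342 had replicate 2 of both groups as their top libraries and tofogliflozin replicate 3 as their lowest. miR-223-3p also had its lowest value in tofogliflozin replicate 3. miR-150-5p and miR-142a-5p had another profile, in which tofogliflozin replicate 2 was the lowest library and tofogliflozin replicate 3 among the upper 3. The library that was lowest for 4 members was therefore second for the lymphocyte miRNA miR-150-5p. Those 2 libraries were also the highest and the lowest on the first principal component, and tofogliflozin replicate 2 was the shallowest. The part of either in the profiles was not tested.

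**Figure D3:**
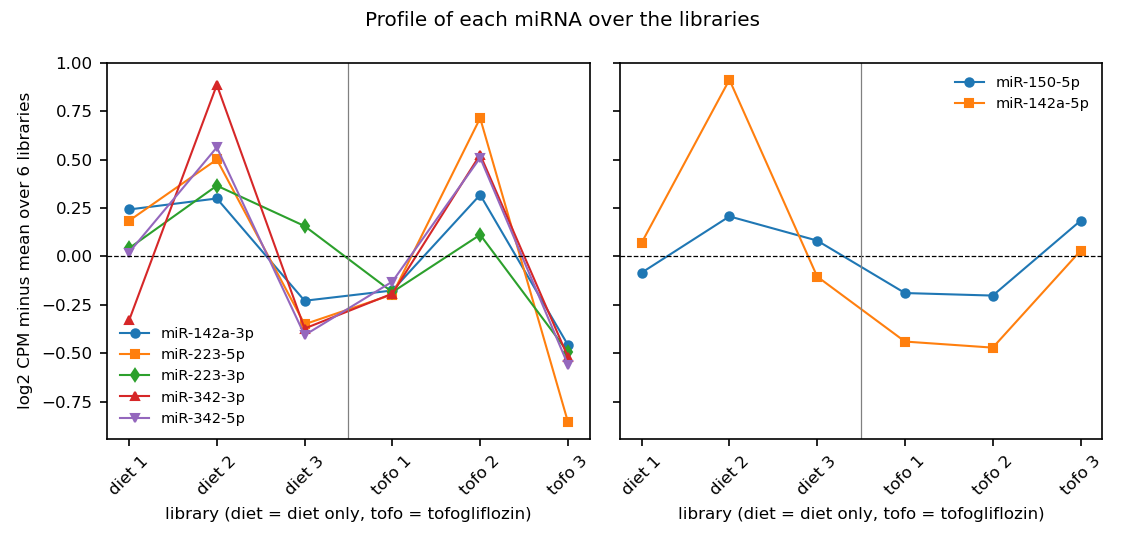
Log2 CPM of each miRNA minus its own mean over the 6 libraries (vertical axis), by library (horizontal axis; lines only join the points of 1 miRNA). The miRNAs in the left panel are low in tofogliflozin replicate 3, and both in the right panel are lowest in tofogliflozin replicate 2; the panels were divided after the values were seen.

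One arm per hairpin was then compared across the 6 libraries in 6 pairs, with exact permutation p-values adjusted by Benjamini-Hochberg over the pairs. The relation of miR-142a-3p with the myeloid miR-223-3p had Pearson r = 0.76 (exact permutation p = 0.0694, adjusted 0.228) and Spearman rho = 0.54 (p = 0.297, adjusted 0.594). It was r = 0.54 without the 2 libraries farthest from the median of miR-142a-3p. miR-142a-3p with miR-342-3p gave r = 0.76 (exact permutation p = 0.0819, adjusted 0.228) and rho = 0.89 (p = 0.0333, adjusted 0.2), with r = 0.62 after leaving out the 2 farthest libraries. For miR-223-3p with miR-342-3p, r was 0.71 (exact permutation p = 0.114, adjusted 0.228) and rho 0.60 (p = 0.242, adjusted 0.594), and r fell to 0.18 without the 2 farthest libraries, so that it rests on these. None of these relations passed the threshold of 0.05 after adjustment.

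With the arms chosen, pairs with miR-150-5p were weaker. Its relation with the myeloid miR-223-3p was r = 0.02 (exact permutation p = 0.976, adjusted 0.976) and rho = 0.26 (p = 0.658, adjusted 0.790), and r was 0.57 without the 2 farthest libraries. With miR-142a-3p it was r = -0.31 (exact permutation p = 0.539, adjusted 0.808) and rho = -0.37 (p = 0.497, adjusted 0.746), and r was 0.38 without the 2 farthest. With miR-342-3p it was r = 0.03 (exact permutation p = 0.953, adjusted 0.976) and rho = -0.14 (p = 0.803, adjusted 0.803), and r was -0.96 without the 2 farthest. The sign of each of these 2 last relations thus depended on which libraries were kept. In these 3 pairs, farthest was taken from the median of miR-223-3p, miR-142a-3p and miR-150-5p, in that order. Each pair thus left out a different set of 2 libraries, and these r values do not compare like with like. As deviations from the group means, the 3 pairs without miR-150-5p had r from 0.77 to 0.87, and its own pairs had r from -0.53 to -0.02. Whether the first 3 relations differ from the other 3 was not tested. Pairs with miR-142a-5p, which like miR-150-5p was lowest in tofogliflozin replicate 2, were not computed, so the contrast holds for the chosen arms only.

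Ratios within a library do not depend on how libraries are scaled. miR-150-5p had 2.70, 1.42 and 3.12 times the reads of miR-342-3p in diet-only replicates 1 to 3, and 2.28, 1.37 and 3.72 times in tofogliflozin replicates 1 to 3. This ratio was lowest in replicate 2 of both groups, and the mean log2 ratio differed by -0.01 (exact 2-sided permutation p = 1, adjusted 1 over 5 ratios). The myeloid to lymphoid log2 ratio, miR-223-3p over miR-150-5p, was -3.72, -3.67 and -3.76 on the diet alone and -3.83, -3.49 and -4.53 with tofogliflozin. The 3 diet-only values were nearly equal (SD 0.0444), and those under tofogliflozin were spread (SD 0.530), with tofogliflozin replicate 3 the lowest and replicate 2 the highest of all 6. The values rest on 64 to 87 reads of miR-223-3p per diet-only library and 27 to 47 per tofogliflozin library. Counting error is thus part of either spread, and the difference in spread was not tested. In this ratio the groups differed by -0.24 (exact 2-sided permutation p = 0.7, adjusted 0.875), or by 0.05 without tofogliflozin replicate 3. A ratio of miR-223-5p, the arm with more reads, to miR-150-5p was not computed. The log2 ratio of miR-223-3p to miR-142a-3p differed by -0.17 (exact 2-sided permutation p = 0.5, adjusted 0.875). With 3 mice against 3 the smallest p of these tests is 0.1, so none could pass 0.05.

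The arms of the hairpins printed above differed in how they shared the reads. In the literature on leukocytes, miR-223-3p is usually treated as the main product of its hairpin. Here the 5p arm held 88.6%, 88.5% and 83.2% of the reads of both arms in diet-only replicates 1 to 3, and 87.5%, 91.5% and 84.7% in tofogliflozin replicates 1 to 3. The exact 95% binomial interval nearest to equal shares was 79.0% to 86.8%, in diet-only replicate 3. Such intervals cover counting error only. How reads were aligned and counted is not given, and ligation of adapters favours some small RNAs. The shares therefore compare reads and not molecules. miR-150 was the most one-sided, with 97.2% ± 0.751 of its reads (SD, n = 6) from the 5p arm. miR-342 was the reverse of miR-223 in direction, with 41.7% ± 3.66 from the 5p arm (SD, n = 6).

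The 5p share of miR-142a had the widest range of the 4 hairpins. Its 5p arm held 55.6%, 68.4% and 60.7% in diet-only replicates 1 to 3 and 54.0%, 44.8% and 66.6% in tofogliflozin replicates 1 to 3. The exact binomial intervals of diet-only replicate 2 (64.2% to 72.4%) and tofogliflozin replicate 2 (36.6% to 53.3%) did not meet. Intervals were apart within each group too. That of diet-only replicate 1 (51.5% to 59.7%) lay below that of diet-only replicate 2. That of tofogliflozin replicate 3 (61.5% to 71.3%) lay above that of tofogliflozin replicate 2. The log2 ratio of 5p to 3p differed between the groups by -0.38 for miR-142a (exact 2-sided permutation p = 0.4, adjusted 0.875) and by 0.15 for miR-223 (exact 2-sided permutation p = 0.7, adjusted 0.875). The miR-223 value turned to -0.07 when diet-only replicate 3 was left out and to -0.10 when tofogliflozin replicate 2 was. Among 108 hairpins with both arms tested under names ending in 5p and 3p, 60 had more reads from the 5p arm.

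**Figure D4:**
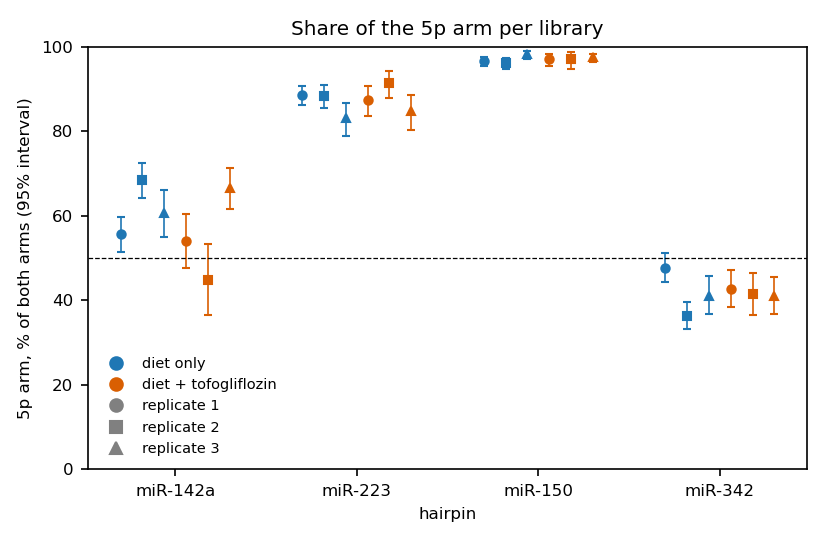
Share of the 5p arm in the reads of both arms (vertical axis, %) for each hairpin and library, with exact 95% binomial intervals; colour gives the group and symbol the replicate. miR-223 lies between 83.2% and 91.5%, while miR-142a runs from 44.8% to 68.4%.

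Other leukocyte miRNAs were compared as a list of 10, of which 7 passed the count filter. Among these 7, 3 had a log2 fold change below 0 and 4 above, 0 passed the adjusted threshold in edgeR, and the median was 0.20. Macrophage-induced miR-147-3p (-1.31 ± 0.38, SE) and miR-146a-5p, which restrains NF-κB signalling (-0.60 ± 0.22), had unadjusted p-values under 0.05 on the lower side, with groups that did not overlap. miR-181b-5p (0.34 ± 0.14) and miR-181d-5p (0.36 ± 0.15), near-identical miRNAs that are high in developing lymphocytes but found in many tissues, had the same on the higher side. These were 4 of 7, against 5% (unadjusted p by edgeR) and 12% (no overlap) of all 460 tested miRNAs. The list was chosen with earlier results of these data known, so these shares are a description only. miR-147-3p rests on 15 to 127 reads per library. The 3 others tested were miR-146b-5p (-0.10 ± 0.27), miR-155-5p (0.29 ± 0.37), which is induced in activated B cells and macrophages, and miR-181a-5p (0.20 ± 0.13). miR-155-5p was at 88.6 CPM in tofogliflozin replicate 2 and at 28.6 to 44.97 CPM in the other 5 libraries, so it was highest in the same library as miR-223-5p and lowest in the same one. miR-155-3p, miR-511-3p and miR-511-5p, the last 2 from a macrophage locus, had at most 5 reads in any library.

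The abundance profiles most like those of the members, by Pearson r of log2 CPM over the 6 libraries, are given as a description with no test. For miR-342-3p they were miR-146b-5p (r = 0.97), miR-31-5p (0.96) and its own other arm miR-342-5p (0.93). For miR-142a-3p they were miR-26a-2-3p (0.99), miR-342-5p (0.93) and miR-1306-3p (0.89). miR-223-3p was followed by miR-467c-5p (0.98), let-7i-5p (0.96) and miR-96-5p (0.91), and miR-150-5p by miR-132-5p (0.92), miR-326-3p (0.91) and miR-361-5p (0.90). miR-146b-5p was at 441, 777 and 475 CPM on the diet alone and 525, 671 and 379 CPM with tofogliflozin. As a miRNA picked for a like profile, it shared with miR-342-3p the high values of replicate 2 in both groups. Each r above is among the highest over all tested miRNAs other than the members, so it is high by selection.

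Markers of other cells in the cortex are given beside these results. The 5 erythroid miRNAs summed to 91.3 to 326 CPM on the diet alone and 165 to 451 CPM with tofogliflozin, and 3 of 3 tested were above 0 (median 0.65). miR-486-5p, which nearly equalled miR-3107-5p in every library, was at 42.9, 70.7 and 151 CPM and then 129, 212 and 75.9 CPM, and miR-451a at 3.52 to 14.7 CPM. miR-486-5p and miR-3107-5p may share reads, which was not tested. The erythroid sum may then hold these reads 2 times, and the 3 tested values are not 3 separate results. The erythroid sum was highest in tofogliflozin replicate 2, as was miR-223-5p, but next highest in diet-only replicate 3, where miR-223-5p ranked 5. The 3 endothelial miRNAs summed to 18879 to 22977 CPM and 16202 to 21620 CPM (2 of 3 below 0), led by miR-126a-3p. For the 4 miRNAs of smooth muscle and pericytes the ranges were 52882 to 57505 CPM and 32049 to 58854 CPM (2 of 4 below 0), with the lowest sum in tofogliflozin replicate 2. Of the 6 tubule miRNAs 3 were below 0, and 0 passed the adjusted threshold in edgeR. One of those above 0, miR-204-5p, had a log2 fold change of 0.69 ± 0.15 (SE) and groups that did not overlap, with an adjusted p of 0.387 by edgeR, 0.0161 by DESeq2 and 0.0396 by edgeR with no filter on low counts. It is named after its values were seen. The hepatocyte miRNA miR-122-5p was at 245 CPM in tofogliflozin replicate 2 and 40.7 to 78.6 CPM elsewhere, and miR-122-3p was at 0 in every library. The part of these other cells in the leukocyte values was not tested.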

How the data were processed

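The authors deposited 1 table of raw read counts per library, with 2033 rows that each pair a mature miRNA with a precursor. Cutadapt 1.14 and build mm10 are named in the submitters' processing notes, and a NEBNext small RNA library set per the labels' protocols. How reads were aligned and counted, and against which miRBase release, is not given in the sources used here. Columns of other samples numbered 0.

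For the 75 repeated names the largest count per library was kept. Differences were tested over all miRNAs with the quasi-likelihood test of edgeR 4.0.16 (R 4.3.3), with TMM factors, the filterByExpr defaults (minimum count 10, minimum total 15) and Benjamini-Hochberg adjusted p under 0.05 as the threshold, which left 460 miRNAs. SEs were derived from the log2 fold change and its F statistic. Log2 CPM used a prior count of 2, and log2 ratios a pseudocount of 1. Permutation tests between the groups were exact, 2-sided, over 20 arrangements of 3 against 3. For the correlations, exact 2-sided permutation p-values were taken over all pairings of the 6 libraries. P-values between the groups set the difference against the spread between these mice, which in edgeR is estimated jointly over all tested miRNAs. The fit was tested on simulated data. Alternatives were other factors and filters, DESeq2 1.42.0, limma-voom (limma 3.58.1), summed rows, a replicate block and each library left out. Beside the members, up to 3 miRNAs per list were to be named by mean CPM (all in lists of at most 3), and the 3 with the most similar profile to each of 4 members. Others in the report, among them the 10 of the leukocyte list, were named after their values were seen. The members, lists and tests were chosen with earlier results of these data known.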

Additional observations from a re-analysis of the deposited data

How the results depend on the processing

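No member passed an adjusted p of 0.05 under any alternative run, the lowest adjusted p being 0.308 (miR-142a-5p without tofogliflozin replicate 3). miRNAs called over the whole table numbered 0 except with no filter on low counts (10, miR-146a-5p and miR-147-3p among them and no member) and with DESeq2 (2). At no less than 10 CPM in 3 libraries miR-223-3p dropped out and gave no value. With a library left out, 0 miRNAs were called each time, and log2 fold changes ran from -0.44 to -0.02 for miR-142a-3p, -0.81 to -0.23 for miR-142a-5p, -0.54 to -0.22 for miR-223-3p, -0.65 to 0.20 for miR-223-5p, -0.24 to -0.02 for miR-150-5p and -0.53 to 0.39 for miR-342-3p. Log2 ratios ran from -0.31 to -0.01 (miR-223-3p over miR-142a-3p), -0.37 to 0.35 (miR-150-5p over miR-342-3p), -0.47 to 0.053 (miR-223-3p over miR-150-5p), -0.72 to -0.08 (arms of miR-142a) and -0.10 to 0.36 (arms of miR-223). Between miR-150-5p and miR-223-3p, r turned to -0.11 with total counts and -0.39 as deviations from the group means. Between miR-150-5p and miR-342-3p it turned to -0.10, -0.022 and, without the 2 farthest libraries, -0.96, and between miR-150-5p and miR-142a-3p to 0.38 without the 2 farthest. The cause was not tested. Blocking on the replicate number (replicate block) gave 0 called miRNAs, 10 with an unadjusted p under 0.05, and the members ran from -0.58 (miR-142a-5p) to -0.12 (miR-342-3p), with no call changed. No sign of pairing by number was seen (r = 0.003, -0.14 and -0.17 between deviations of same-numbered libraries), and no diet-only library correlated best with its own number. Such correlations cannot show that the numbers carry no pairing. miR-223-3p rests on 27 to 87 reads per library and miR-150-3p on 9 to 40, which limits their precision.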
